A study of Homo sapiens with 12 samples.

Results

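The 10 genes described here, ACLY, ACSS2, ACACA, FASN, ELOVL6, SCD, ELOVL5, FADS1, FADS2 and GPAM, encode enzymes that make, lengthen and desaturate fatty acids and pass them on to glycerolipids. They were chosen by name, out of 20090 protein-coding genes. For each gene, all called regions from 10 kb upstream to 10 kb downstream were collected, and those overlapping a window that opens 1 kb before and closes 100 bp after a transcript start were counted as promoter regions. The regions came from chromatin immunoprecipitation sequencing (ChIP-seq) of HCC70, a human cell line derived from a triple-negative breast cancer. Cells received vehicle or XY018, an antagonist of the nuclear receptor RORγ, for 24 h. The sample labels give XY018 at 5 µM, whereas a lower dose is stated in the study's methods. Chromatin was precipitated with antibodies to SREBP2, to RORγ and to H3K27ac, an acetylated form of histone H3 found at active promoters and enhancers, and each antibody gave 1 library per treatment. The 6 input libraries of the 12 samples were not analysed here on their own. With 1 library in each of the 6 groups, no difference between treatments could be tested, and the 95% intervals given below cover counting error only.

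Sterol regulatory element-binding proteins are membrane-bound factors that are cleaved and released to the nucleus when sterols are low. SREBP2 is known mainly as an activator of cholesterol synthesis and uptake, and SREBP1 as an activator of fatty acid synthesis, although both bind the sterol regulatory element (SRE) and their targets overlap. On many target promoters they act beside NF-Y and Sp1, which bind CCAAT boxes and GC boxes. RORγ binds AGGTCA preceded by an A/T-rich stretch, the ROR response element (RORE). Fatty acid synthesis starts from acetyl-CoA, which ACLY makes from citrate and ACSS2 from acetate. ACACA (acetyl-CoA carboxylase) makes malonyl-CoA, and FASN (fatty acid synthase) uses it to build palmitate. ELOVL6 lengthens palmitate, SCD puts the first double bond into saturated chains, and FADS2, ELOVL5 and FADS1 act in turn on polyunsaturated chains. GPAM attaches a fatty acid to glycerol 3-phosphate, the first step towards triglycerides and phospholipids.

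Sequences at 4 of these genes carry the positions to which the results refer. Each runs 5′ to 3′ on the coding strand of the gene over 151 bp of GRCh37, the build called hg19 in the study, with capitals for every match to a searched motif. The motifs were the SRE (TCACNCCAC), the CCAAT box, the GC box (GGGCGG), the E-box (CACGTG) and the AGGTCA motif of ROR receptors, searched on both strands. ACSS2 (chr20:33464497-33464647, plus strand) is centred on the SREBP2 summit with vehicle, which lay in the first coding exon beside an AGGTCA match. The stretches at ACACA (chr17:35767039-35767189, minus strand) and SCD (chr10:102106243-102106393, plus strand) were included because SREBP2 and RORγ had their summits at nearly the same base upstream of the start. ELOVL6 (chr4:111117525-111117675, minus strand) is centred on the SREBP2 summit in the intron downstream of its start.
ACSS2: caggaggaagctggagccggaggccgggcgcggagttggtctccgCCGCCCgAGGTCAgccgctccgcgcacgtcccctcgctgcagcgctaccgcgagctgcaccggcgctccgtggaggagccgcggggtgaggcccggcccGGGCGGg
ACACA: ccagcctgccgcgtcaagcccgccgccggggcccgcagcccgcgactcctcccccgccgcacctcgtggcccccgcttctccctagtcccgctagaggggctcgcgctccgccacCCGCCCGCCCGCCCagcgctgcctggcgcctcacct
SCD: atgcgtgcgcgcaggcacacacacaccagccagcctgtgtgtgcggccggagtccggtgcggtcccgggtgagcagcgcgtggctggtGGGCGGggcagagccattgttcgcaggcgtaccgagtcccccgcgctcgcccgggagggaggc
ELOVL6: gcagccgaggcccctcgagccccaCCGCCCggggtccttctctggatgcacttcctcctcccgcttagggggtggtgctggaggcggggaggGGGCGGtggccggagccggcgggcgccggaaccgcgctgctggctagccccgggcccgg
In the ACSS2 stretch a GC box on the opposite strand precedes the AGGTCA by 1 base. The long run of capitals in the ACACA stretch is 3 overlapping GC boxes on the opposite strand. The SCD stretch holds 1 GC box and the ELOVL6 stretch holds 1 on either strand.

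The libraries were of similar depth. Recovered from the peak values, they ran from 3.65 tags per kb for RORγ with XY018 to 6.16 tags per kb for H3K27ac with vehicle, and the XY018 libraries had 1.07, 0.904 and 0.913 times the tags of the vehicle libraries for SREBP2, RORγ and H3K27ac. The H3K27ac lists held part of longer sets of calls, so that an H3K27ac region missing from a list may have been called and left out. With vehicle, H3K27ac promoter regions were present at 7 of 9 epithelial and basal markers, with KRT6B and KRT14 the exceptions, and at none of 5 markers of immune, liver and stromal cells. Of the receptor genes that the triple-negative class lacks, PGR had no H3K27ac promoter region, whereas ESR1 had a weak one, with a fold over local background of 5.07 with vehicle and 6.77 with XY018.

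Promoter regions were called at 7 to 9 of the 10 genes, depending on the library. SREBP2 promoter regions were called at 9 genes with vehicle, where 70.6% of all protein-coding genes had one, and at 8 with XY018, where 62.7% had one. RORγ promoter regions were called at 8 genes with vehicle, beside 62.7% of all genes, and at 7 with XY018, beside 61.5%. H3K27ac promoter regions were called at 9 genes under either treatment, beside 66.8% and 68.0% of all genes. Several of the 10 genes have many annotated starts, 20 each for ACSS2, ACACA and FADS1. Among the 5185 genes with 10 or more starts the share with a SREBP2 promoter region was 86.5% with vehicle and 78.1% with XY018. Only 5 of the 10 genes, ACSS2, ACACA, FASN, FADS1 and FADS2, belong to that class, and SREBP2 promoter regions were called at all 5 under either treatment. The share in the class was 77.7% and 77.0% for RORγ and 86.7% and 87.8% for H3K27ac. The missing calls fell on few genes. ELOVL6 had no promoter region in any of the 6 libraries, GPAM had no RORγ promoter region under either treatment and no SREBP2 region with XY018, and ACLY had no RORγ promoter region with XY018.

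**Figure D1:**
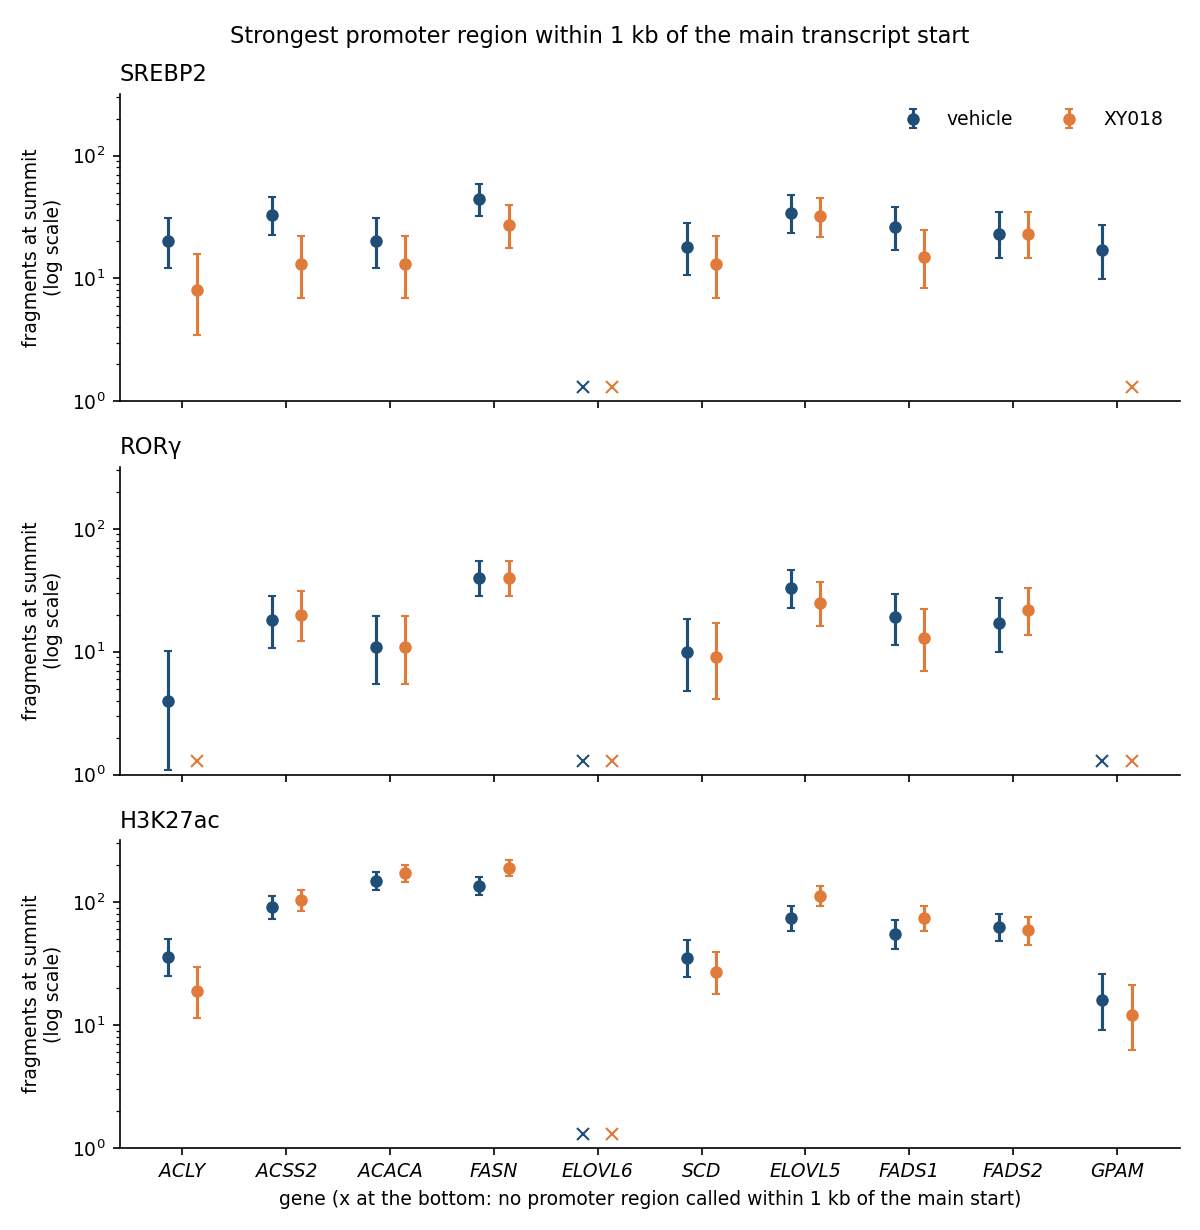
Fragments at the summit of the strongest promoter region lying within 1 kb of the main transcript start, for each gene and library (log axis), with exact Poisson 95% intervals as bars and crosses where no such region was called. SREBP2 with vehicle (blue) runs from 17 fragments at GPAM to 44 at FASN and is at or above XY018 (orange) at every gene with both points, whereas H3K27ac with XY018 lies above vehicle at FASN and ELOVL5 and below it at ACLY.

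The strength of a region was read as the number of fragments stacked at its summit. Within 1 kb of the main start of each gene, the strongest SREBP2 promoter region held 17 to 44 fragments with vehicle, with a median of 23 over 9 genes, and 8 to 32 with XY018, with a median of 14 over 8 genes. These summits stood 16.5 to 42.8 times above the genome-wide background with vehicle. FASN was highest with vehicle, followed by ELOVL5 and ACSS2, and GPAM was lowest, although the intervals of neighbours in this order overlapped throughout. RORγ summits ran from 4 fragments at ACLY to 40 at FASN with vehicle. FASN was thus highest for both factors with vehicle, and ACACA was highest for H3K27ac, with 149 fragments. To compare treatments, fragments were divided by the genome-wide background of their library, and the XY018 value was divided by the vehicle value. In the following, a ratio below 1 means a lower scaled pileup with XY018.

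Among the main starts with a SREBP2 promoter region under both treatments, those of ACSS2 and ACLY, the acetyl-CoA producing genes, held the lowest ratios, and the SREBP2 region at GPAM, lost with XY018, has no ratio. At ACSS2, the SREBP2 summit held 33 fragments with vehicle (95% interval 22.7 to 46.3) and 13 with XY018 (6.92 to 22.2), a ratio of 0.334 (0.161 to 0.651). The RORγ summit at this site held 18 fragments with vehicle and 20 with XY018, a ratio of 1.23 (0.617 to 2.46). H3K27ac held 91 and 104 fragments, a ratio of 1.25 (0.936 to 1.68). The 4 factor summits lay between 148 and 158 bp downstream of the main start, next to the AGGTCA in the ACSS2 sequence shown above, and SREBP2 was the antibody with fewer fragments under XY018 at this position. A second ACSS2 promoter region, 3.9 kb upstream at other starts of the gene, is shared with the GGT7 promoter. It held 27 and 21 SREBP2 fragments, a ratio of 0.659 (0.354 to 1.21). The intervals of the 2 sites overlapped, and the difference between them was not tested.

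At ACLY, SREBP2 had 20 fragments with vehicle (12.2 to 30.9) and 8 with XY018 (3.45 to 15.8), a ratio of 0.339 (0.129 to 0.803). In the promoter window, RORγ had only 4 fragments with vehicle and no call with XY018, where the weakest called summits hold 3 fragments. Farther into the gene, beyond the promoter window, both factors had a region under either treatment. RORγ held 8 fragments there with vehicle and 6 with XY018, with summits 696 and 682 bp from the start, and SREBP2 held 12 and 11, so both factors were called near the start of ACLY with XY018. ACLY also had the lowest H3K27ac ratio of the 9 genes, with 36 fragments under vehicle (25.2 to 49.8) and 19 under XY018 (11.4 to 29.7), a ratio of 0.578 (0.313 to 1.04). Only 1.51% of the protein-coding promoters marked under both treatments had a lower H3K27ac ratio. This interval included 1 but not the median of all promoters, 1.27, and ACLY was the only one of the 9 genes of which that was true.

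The genes of malonyl-CoA and palmitate synthesis carried strong H3K27ac. At the main start of ACACA, SREBP2 had 20 and 13 fragments, a ratio of 0.55 (0.252 to 1.16), and RORγ had 11 under either treatment. The SREBP2 summit lay 187 bp before the start with vehicle and 46 bp after it with XY018. H3K27ac at the main start held 149 and 172 fragments, a ratio of 1.26 (1.01 to 1.59). This region is shared with the divergent TADA2A promoter, so its signal cannot be assigned to ACACA alone. A second ACACA promoter region, at internal starts 51 kb into the gene, held 21 and 16 SREBP2, 15 and 15 RORγ, and 82 and 70 H3K27ac fragments. It was the strongest ACACA site for both factors, although its intervals overlapped those of the main start.

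At the main start of FASN, SREBP2 had 44 fragments with vehicle (32.0 to 59.1) and 27 with XY018 (17.8 to 39.3), a ratio of 0.52 (0.309 to 0.858). RORγ had 40 fragments under either treatment. H3K27ac had 136 (114 to 161) and 190 (164 to 219), a ratio of 1.53 (1.22 to 1.92). At this promoter the SREBP2 summit was therefore lower with XY018 and that of H3K27ac higher, by more than counting error in both cases. The SREBP2 summits lay 171 bp after the start with vehicle and 818 bp after it with XY018, in regions of 2581 and 2384 bp. The SREBP2 ratio thus compares the highest points of 2 wide regions and not 1 position. The 1.53 lay within the range of other promoters, of which 80.0% had a lower H3K27ac ratio.

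ELOVL5, SCD, FADS1 and FADS2 are the elongation and desaturation genes with promoter regions. At ELOVL5, SREBP2 had 34 and 32 fragments, a ratio of 0.797 (0.476 to 1.33), and RORγ had 33 and 25, a ratio of 0.838 (0.478 to 1.45). H3K27ac at ELOVL5 held 74 fragments with vehicle (58.1 to 92.9) and 112 with XY018 (92.2 to 135), and its ratio of 1.66 (1.23 to 2.26) was the highest of the 9 genes. SREBP2 thus stayed within counting error at ELOVL5, where H3K27ac was higher by more than that. However, the H3K27ac interval included the median of all promoters, 1.27, and 88.9% of promoters had a lower ratio. The SREBP2 interval likewise included the median of all promoters, 0.621.

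SCD has a single annotated start and carried 2 separate SREBP2 promoter regions with vehicle. The upstream one, 672 bp before the start, had 14 fragments of SREBP2 with vehicle and 13 under XY018, a ratio of 0.786 (0.34 to 1.8). RORγ had its summit 4 bp away with vehicle and held 10 and 9 fragments. The other region, with its summit 236 bp after the start in the untranslated part of the first exon, had 18 fragments of SREBP2 with vehicle and was not called with XY018. H3K27ac there was 35 and 25 fragments, a ratio of 0.783 (0.449 to 1.35), and at the upstream region 24 and 27, a ratio of 1.23 (0.685 to 2.23). Of the 2 SREBP2 regions at SCD, the one that was kept coincided with RORγ with vehicle, and a link between these observations was not tested. A RORγ region of 4 fragments was called beside the start with XY018 only.

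FADS1 and FADS2 lie head to head, and some transcripts of each start at the other's promoter, so that they share regions. At the main start of FADS1, SREBP2 had 26 and 15 fragments, a ratio of 0.489 (0.241 to 0.957), and RORγ had 19 and 13, a ratio of 0.757 (0.343 to 1.61). H3K27ac at FADS1 held 55 and 74 fragments, a ratio of 1.47 (1.03 to 2.13). Upstream of the main start of FADS2, SREBP2 had 23 fragments under either treatment, a ratio of 0.847 (0.454 to 1.58). RORγ there had 17 and 22, a ratio of 1.43 (0.726 to 2.87). H3K27ac had 63 and 59, a ratio of 1.03 (0.707 to 1.49). The intervals at FADS1 and FADS2 overlapped for every antibody, and the difference between these genes was not tested. The SREBP2 region with the highest fold of the FADS1 and FADS2 locus lay outside the promoter windows. Its summit was in the first FADS2 intron, 627 bp after the main start. It held 22 fragments with vehicle and was not called with XY018.

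GPAM was the gene with the weakest marks. Its SREBP2 summit with vehicle fell on the main start itself (chr10:113943367-113943698), with 17 fragments (9.9 to 27.2), and no SREBP2 region was called there or elsewhere within 10 kb of the gene with XY018. The weakest summits called at background level in that library hold 4 fragments. H3K27ac held 16 fragments with vehicle and 12 with XY018, a ratio of 0.822 (0.355 to 1.85), and the only RORγ regions around GPAM, of 5 and 4 fragments with vehicle, lay 25.6 kb downstream and 28.7 kb upstream of the main start. The one of 4 fragments is nearer to an upstream start of the gene, and with promoter windows of 5 kb to either side GPAM counted as marked by RORγ with vehicle.

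ELOVL6 was empty in the promoter window and not empty beside it. A region in the intron (chr4:111116982-111118456), 1066 bp from the nearest annotated start, was called in all 6 libraries. SREBP2 had 25 fragments there with vehicle and 22 under XY018, a ratio of 0.745 (0.401 to 1.38). RORγ held 16 and 12, a ratio of 0.829 (0.358 to 1.87), and H3K27ac held 124 and 149, a ratio of 1.32 (1.03 to 1.68). By H3K27ac this site was stronger than the promoters of 7 of the 9 other genes with vehicle, all but ACACA and FASN. With promoter windows of 5 kb to either side of a start, ELOVL6 counted as marked in all 6 libraries.

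Set side by side, the scaled SREBP2 pileup was lower with XY018 at every one of the 8 promoters called under both treatments, but so was nearly every promoter of the genome. At the promoter pair with the highest pileup of each gene, the median SREBP2 ratio was 0.691, from 0.339 at ACLY to 0.847 at FADS2, beside a median of 0.621 over all promoters, of which 98.0% were below 1. For 2 of the 8 genes, ACLY and FADS1, the interval lay below 1, and for none did it leave out the median of all promoters. The fold over the local background was instead higher with XY018 at FADS2 (7.52 and 10.8) and at ELOVL5 (12.7 and 13.5), and by this measure the median was 0.752. At main starts only, the median scaled ratio was 0.52 over 7 genes, and 4 intervals lay below 1. ELOVL5 is left out there, as its XY018 region missed the main start window. The 0.621 of all promoters is for pairs at any start and is no comparison for this 0.52. The RORγ ratio had a median of 1.11, with 3 of 7 genes below 1, beside 55.2% of all promoters and a median of 0.968, and none of the 7 intervals left out 1. With the fold over the local background in place of the scaled pileup the RORγ median was 0.745, so no direction can be given for RORγ. The H3K27ac ratio had a median of 1.25, with 4 of 9 genes below 1, beside 19.5% of all promoters and a median of 1.27. The 4 genes were ACLY, SCD, FADS2 and GPAM, and among these FADS2 was below 1 at a start 35.5 kb upstream of its main one, in a region shared with the FEN1 and TMEM258 promoters. At main starts only, 3 of 9 were below 1, without FADS2.

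**Figure D2:**
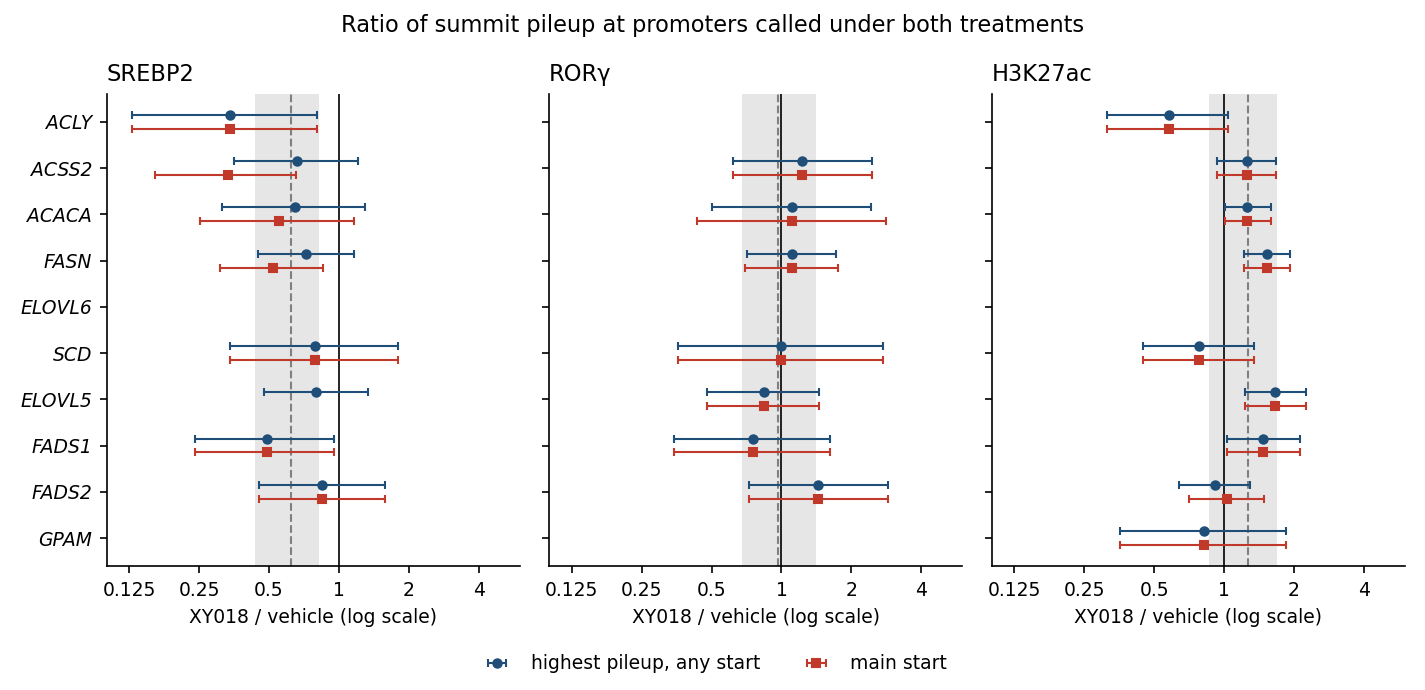
Ratio of scaled summit pileup, XY018 over vehicle (log axis), at promoters called under both treatments, with exact 95% intervals for counting error, for the pair with the highest pileup at any start (circles) and at the main start (squares). The dashed line is the median of all protein-coding promoters and the grey band their 10th to 90th percentiles, and all SREBP2 points lie below 1, while ACLY is lowest for H3K27ac at 0.578.

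The enzymes of fatty acid synthesis can be set beside 31 other genes of fatty acid and glycerolipid synthesis and 19 of cholesterol synthesis. Of the 31, SREBP2 marked the promoters of 28 with vehicle and of 27 with XY018. MID1IP1, THRSP and ACSL5 lacked one under either treatment, and ELOVL3 lacked one with XY018. Their median SREBP2 ratio was 0.628, from 0.391 at AGPAT1 to 1.11 at LPIN1, and 26 of 27 were below 1. Of the 19 cholesterol genes, SREBP2 marked 16 with vehicle and 15 with XY018, with a median ratio of 0.598 and all 15 below 1. The medians of the 3 lists, 0.691, 0.628 and 0.598, thus lay around the 0.621 of all promoters. For RORγ the medians were 1.11, 1.11 and 1.03 in the same order, and for H3K27ac 1.25, 1.33 and 1.15.

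Whether regions were kept, that is, overlapped a region of the same antibody with XY018, was examined next. At the promoters, 16 of 20 SREBP2 vehicle regions were kept (80.0%, 56.3 to 94.3%), beside 74.0% over all promoters. The 4 that were lost were those at GPAM and SCD described above, and weaker ones of 6 and 13 fragments at other starts of FADS1 and FADS2. RORγ regions at the promoters were kept in 14 of 15 cases (93.3%, 68.1 to 99.8%), beside 78.6%, and the lost one was that of 4 fragments at ACLY. H3K27ac regions were kept in 24 of 26 cases (92.3%, 74.9 to 99.1%), beside 86.9%.

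The shares kept were lower away from the starts for all 3 antibodies, around the 10 genes as over all genes, a difference that was not tested. In the windows as a whole, 29 of 48 SREBP2 regions were kept (60.4%, 45.3 to 74.2%), beside 44.2% over all genes, 26 of 59 RORγ regions (44.1%, 31.2 to 57.6%), beside 41.1%, and 71 of 108 H3K27ac regions (65.7%, 56.0 to 74.6%), beside 69.8%. Outside every protein-coding promoter the counts were 11 of 25 for SREBP2 (44%, 24.4 to 65.1%), 11 of 43 for RORγ (25.6%, 13.5 to 41.2%) and 41 of 75 for H3K27ac (54.7%, 42.7 to 66.2%), beside 33.2%, 32.1% and 63.1% over all genes. All these intervals but that for SREBP2 in whole windows included the share over all genes. They treat neighbouring regions of a gene as independent, and FASN alone gave 12 of the 48 SREBP2 regions, 11 of them kept. Promoter regions were 20 of the 48, beside 23204 of 85720 over all genes, and no difference is read from the exception. With q of at most 0.01 required, the RORγ share in whole windows was 78.1%. FADS2 lost the most SREBP2 regions, 10 of 15, and FASN the fewest among genes with more than 5, 1 of 12. ELOVL5 kept both of its SREBP2 regions.

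**Figure D3:**
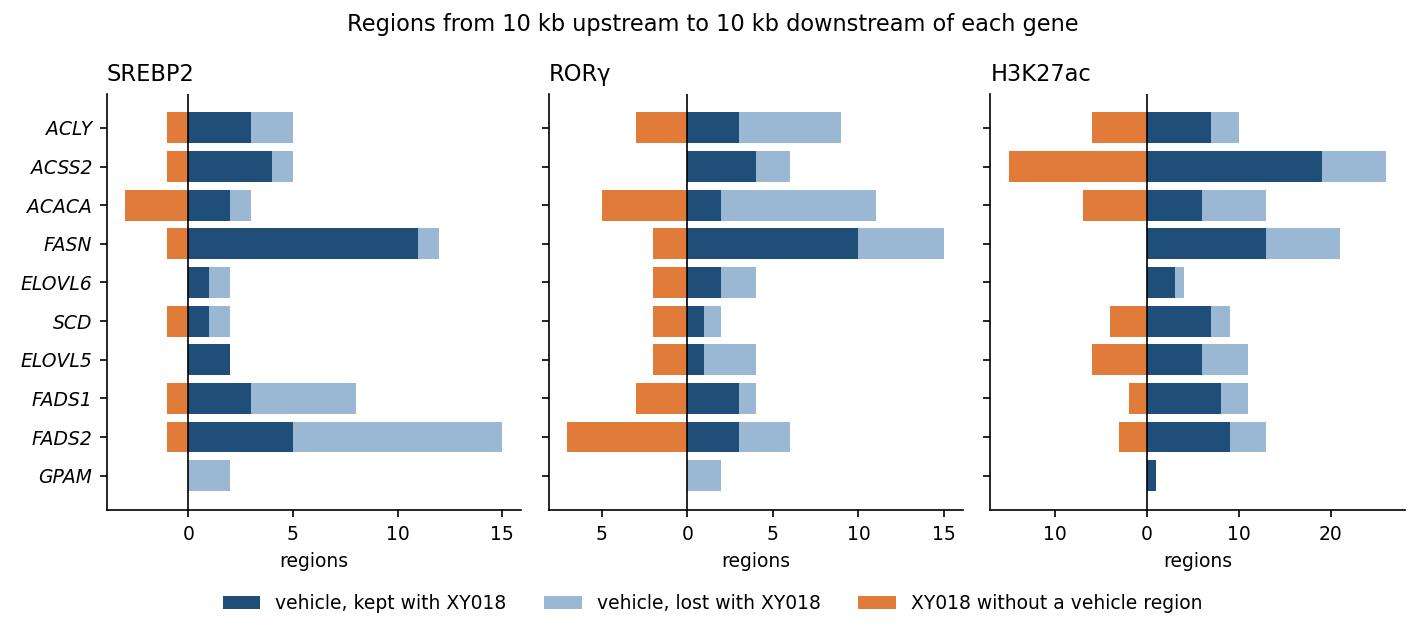
Number of called regions from 10 kb upstream to 10 kb downstream of each gene, with vehicle regions kept (dark blue) and lost (light blue) with XY018 to the right of 0 and XY018 regions without a vehicle partner (orange) to the left. FADS2 shows the most SREBP2 regions lost, 10 of 15, FASN the most kept, 11 of 12, and regions that FADS1 and FADS2 share are counted for both.

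FASN stood apart from the other genes described here in how much of its body was covered by regions of both factors. The gene spans 20.0 kb, of which SREBP2 regions covered 88.5% with vehicle and 78.6% with XY018, and RORγ regions 86.4% and 85.4%. In each of these 4 libraries that was the highest share among the 14857 genes of at least 10 kb, a minimum chosen after the values were seen. The next highest share was close, at 83.3% and 72.5% for SREBP2 and 83.3% and 80.7% for RORγ with vehicle and XY018. The median gene had 1.81% and 1.15% for SREBP2 and 2.01% and 1.59% for RORγ, and among all 20090 genes, short ones included, 81 to 97 had a higher share than FASN. The regions were strong as well as long. With vehicle, the 7 SREBP2 regions over the gene held 12 to 44 fragments, with a median of 36.0, and the 8 RORγ regions held 7 to 48, with a median of 36.5. The longest SREBP2 region ran over 7233 bp (chr17:80038293-80045525) with its summit 12.8 kb into the gene and 41 fragments, and the highest RORγ fold at FASN, 26.5 with 48 fragments, lay 19.6 kb into the gene, at its end.

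Coverage of the gene body by H3K27ac did not follow the factors. It was 59.9% with vehicle and 28.4% with XY018, while the H3K27ac summit at the FASN promoter held more fragments with XY018. The listed H3K27ac regions over the gene numbered 14 and 8. Because the H3K27ac lists held part of longer sets of calls, regions missing with XY018 may have been called and left out. The SREBP2 signal over the gene was split into 13 regions with XY018, with a median of 21.0 fragments, against 7 with vehicle. The base composition of FASN is unusual, at 66.7% G and C beside a median of 43.3% for genes of at least 10 kb, and the 6 other genes that were as rich had a median SREBP2 coverage of 63.9% with vehicle and a range of 1.42 to 83.3%. The local background behind the FASN calls had a median of 1.22 fragments for SREBP2 with vehicle, beside 1.03 genome-wide, and of 0.873 for RORγ, beside 0.787. The part of base composition in the coverage was not tested.

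Sites where all 3 antibodies met were also counted, and how common they are around other genes was not measured. Regions of the 6 libraries around the 10 genes merged into 182 sites, of which 57 had no region with vehicle. With vehicle, 15 sites carried SREBP2, RORγ and H3K27ac, 10 of them at promoters of these genes. The other 5 were the ELOVL6 site, 2 around ACSS2, 1 downstream of ACLY that overlaps the KLHL11 promoter, and 1 upstream of FASN that overlaps a CCDC57 promoter. The ACSS2 sites lay 13.1 kb upstream of the main start (chr20:33450477-33452553) and 22.2 kb downstream of it in an intron (chr20:33486458-33487189). The intronic one had the strongest RORγ signal of the gene, with 30 fragments with vehicle and 20 with XY018, a ratio of 0.737 (0.397 to 1.34), and held 32 and 25 SREBP2 fragments, a ratio of 0.662 (0.376 to 1.15). The upstream one held 26 and 17 RORγ fragments, a ratio of 0.723 (0.368 to 1.38), and 24 and 16 SREBP2 fragments, a ratio of 0.565 (0.28 to 1.11). H3K27ac at both was within counting error, with ratios of 1.07 (0.655 to 1.73) and 0.959 (0.64 to 1.43). The KLHL11 site held 20 and 14 SREBP2, 11 and 9 RORγ, and 42 and 43 H3K27ac fragments, and the CCDC57 site held 13 and 7 SREBP2 and 21 and 9 H3K27ac fragments and lost its RORγ region of 8 fragments.

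With vehicle, 18 pairs of overlapping SREBP2 and RORγ promoter regions, with those that FADS1 and FADS2 share counted for both, had a median distance of 322 bp between summits, and 7 pairs lay within 100 bp. With XY018 the median was 37.5 bp over 16 pairs, of which 11 lay within 100 bp, and other promoters were not measured in this way. Many pairs under either treatment came from the wide regions of FASN, at up to 6857 bp with vehicle and 2746 bp with XY018. The medians thus depend on that gene, and the difference between them was not tested. The summits were closest with vehicle at SCD, 4 bp apart, followed by 8 bp at ACACA and 9 bp at ACSS2. They were 82 bp apart at ELOVL5, 340 bp at ACLY, and 65 and 656 bp for the 2 pairs at the main start of FADS2. At FADS1 they were 322 bp apart with vehicle and 20 bp with XY018, and at FASN, where regions are wide, 496 and 274 bp. The sequence under the summits was searched for the motifs of both factors. Within 100 bp of the strongest SREBP2 promoter summit of each gene with vehicle, at any start, the SRE was found at 0 of 9 genes, beside 0.974% of all SREBP2 promoter regions, and the E-box at 0, beside 5.4%. The GC box was found at 8 of 9 genes, all but SCD, beside 57.3%, and the CCAAT box at 2, ACLY and GPAM, beside 9.15%. AGGTCA was found at ACSS2 alone, beside 7.88%, and the RORE core at none, beside 0.121%. A RORE core can contain AGGTCA, so these searches overlap. The SREBP2 summits near the main starts were rich in G and C, from 68.7 to 81.1% over 201 bp, beside a mean of 71.0% for all SREBP2 promoter regions.

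In the main promoter window of 1101 bp, CCAAT boxes were present at 8 of 10 genes, beside 73.5% of 19812 promoters, and GC boxes at 9 of 10, beside 72.6%. E-boxes were present at ACLY, FASN and ELOVL5, beside 19.6%, and AGGTCA at ACSS2, ACACA and ELOVL6, beside 48.4%. Of these 3 AGGTCA matches none lay in a RORγ promoter region, and the one under the RORγ summit of ACSS2 lay just outside the window, in the coding exon.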

How the data were processed

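The antibody and treatment labels gave the groups. According to the methods of the study, the authors aligned single-end reads to hg19 with BWA and removed duplicate and multiply placed tags, whereas the submitters' processing notes name Bowtie2. MACS2 2.1.0 called peaks in each library on its own. With vehicle and XY018, the SREBP2 lists held 117496 and 69736 regions and the RORγ lists 167375 and 130047. The vehicle lists are longer than the high-confidence sets of binding sites that the study reports. The factor lists include weak calls, with as few as 4 fragments for SREBP2 and 3 for RORγ at background level. For each region the authors deposited the fold enrichment, a ratio of the summit pileup plus 1 to the local background plus 1, and the −log10 p-value and −log10 q-value. The deposited display score was not used. The H3K27ac lists held 95100 and 105372 regions numbered up to 245055 and 241397, and no source used here gives the rule of selection.

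From fold and −log10 p, the whole number of fragments stacked at each summit and its local background were recovered with the Poisson model that MACS uses. This gave a whole number for 100% of regions, with a tolerance of 5% of the step between neighbouring numbers, and was tested on simulated data. The most common background was taken as genome-wide. Dividing it by the smallest region width, taken as the fragment length (185 to 205 bp), gave tags per kb. Chromosomes 1 to 22 and X and GENCODE 44 annotation lifted to GRCh37 were used, and main starts were those of the canonical transcripts. Regions overlapped when they shared 1 bp. Per gene, the promoter pair with the highest summed pileup gave the ratio. Intervals were exact Poisson, Clopper-Pearson or conditional binomial. No p-value was computed. Motifs were searched within 100 bp of summits. Alternatives were q thresholds, promoter windows, annotated starts, overlap rules, list lengths, pileup scalings and motif windows.

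The genes, lists and measures were chosen with earlier results of these data known. All 10 genes are named. Regions are named at their promoters, where their vehicle fold is highest, or where all 3 antibodies met outside promoters. Other genes of the pathway are named only where they lack a promoter region for SREBP2 or hold the highest or lowest SREBP2 ratio. The values within 1 kb of the main start, the gene body coverage and the base composition were added after the data were seen. One sequence result is not reported here. PECAM1, a listed endothelial marker, was not matched. Python 3.11.15, NumPy 2.4.6, pandas 2.3.3, SciPy 1.17.1, pysam 0.24.0 and samtools 1.23.1 were used.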

Additional observations from a re-analysis of the deposited data

Results flagged for a closer look

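At 5 of the 8 genes with a SREBP2 promoter pair, the strongest such pair had a lower scaled pileup with XY018. That of H3K27ac had a higher one, in the single pair of libraries of each antibody. The H3K27ac ratios, all at the main start, were 1.25 at ACSS2, 1.26 at ACACA, 1.53 at FASN, 1.66 at ELOVL5 and 1.47 at FADS1. SREBP2 beside the same starts had ratios of 0.334, 0.55, 0.52, 0.797 and 0.489 in that order. At ACSS2, ACACA and FASN the strongest SREBP2 pair lay at other starts. It had a ratio of 0.659 at ACSS2, 3.9 kb upstream, where H3K27ac had 1.33 (0.844 to 2.09). At ACACA it had 0.645, 51 kb into the gene, where H3K27ac had 0.935 (0.67 to 1.3). At FASN it had 0.723, with summits 12780 bp into the gene with vehicle and 14210 bp with XY018. The H3K27ac pair nearest to that vehicle summit, at 12519 and 12526 bp, had 0.701 (0.35 to 1.37). The ratios of both antibodies were thus below 1 around these 2 sites, although the FASN summits did not lie at 1 position. Among all promoters the medians, 1.27 for H3K27ac and 0.621 for SREBP2, lay on the same sides of 1 as at the main starts. SREBP2 was below 1 at 98.0% of all promoters and H3K27ac at only 19.5%, so these directions are the common ones. The share of promoters with both was not counted. The difference between the antibodies was not tested.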

How the results depend on the processing

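Of 93 alternative values, 76 stayed within the spread or range of the reported one, 16 moved and 1 reversed, and the cause was not tested. The reversal was the median RORγ ratio, 0.745 with the fold over the local background in place of 1.11. The median SREBP2 ratio was 0.52 at main starts only. With summits within 100 bp required, the shares of SREBP2, RORγ and H3K27ac window regions kept were 31.2%, 28.8% and 43.5%, and those of SREBP2 and H3K27ac promoter regions 45.0% and 69.2%. With lists of equal length, 80.0% of SREBP2 and 60.5% of RORγ window regions and 100% of RORγ promoter regions were kept. At q of at most 0.01 the RORγ shares were 100% at promoters and 78.1% in windows, and 85.0% in windows at 1e-05. The CCAAT box was found at 1 gene within 50 bp of the SREBP2 summit and at 4 within 250 bp, the GC box at 5 within 50 bp, and AGGTCA at 2 within 250 bp. No paired analysis was possible because each group held 1 library and no test was made. For the same reason no replicate could be left out. The factor ratios at promoters are limited by counts of 8 to 44 fragments per summit.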
